A study of Mus musculus with 36 samples.

Results

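The genes described here are listed as identity genes of the renal stroma, the loose tissue that surrounds the nephrons and collecting ducts. They are 9 of the 22761 genes of the deposited table and were chosen by name: *Foxd1*, *Tcf21*, *Meis1*, *Meis2*, *Meis3*, *Pbx3*, *Pdgfra*, *Pdgfrb* and *Ntn1*. They were followed through 36 RNA sequencing samples of mouse kidney progenitors in 9 groups of 4. Ex-fetu stromal progenitors (SP), nephron progenitors (NP) and ureteric bud cells (UB) were sorted from the kidneys of CD1 mouse embryos at embryonic day (E) 11.5 and E12.5. Induced stromal and nephron progenitors (iSP and iNP) were sorted out of embryoid bodies made from the E14 mouse embryonic stem cell (mESC) line, and engineered ureteric buds (eUB, labelled iUB) out of those of a line labelled Sox9-mCherry-mESC. The labels name no deletion or other allele in any group beyond the reporter of that line, and no treatment beyond the differentiation protocols. Kidneys from a whole litter went into every ex-fetu sample, and embryoid bodies from a single differentiation into every mESC-derived one, so that each source rests on 1 mouse strain or 1 ES line. Cell type and ES line cannot be told apart between iSP and eUB, nor can origin and strain between mESC-derived and ex-fetu cells. SP and iSP were gated as ITGA8 low and PDGFRA high, and NP and iNP as ITGA8 high and PDGFRA low, after cells positive for EpCAM, RET or CD31 had been gated out. UB cells were sorted by RET and EpCAM, and eUB cells by EpCAM and mCherry. For this reporter the study describes making a Sox8-mCherry line, while its sorting and sequencing methods write Sox9-mCherry. *Pdgfra* encodes the surface protein of the stromal gate, so its difference between SP and NP checks the sort and is no result. Counts of members in those comparisons and in those of SP or iSP with UB or eUB leave it out. The UB labels contradict each other on age: those titled E11.5 name E12.5 as their source, and the reverse. The titles were followed.

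The stroma of the embryonic kidney descends from *Foxd1*-expressing progenitors that surround the cap of nephron progenitors. Their descendants include interstitial fibroblasts, pericytes and mesangial cells, and signals from them are needed for nephron progenitors to differentiate and for the ureteric bud to branch. *Foxd1* encodes a forkhead transcription factor, and *Tcf21* (also called Pod1) a basic helix-loop-helix factor made by stroma and, later, by podocytes. The Meis and Pbx proteins are homeodomain factors of the TALE class, which bind DNA together with each other and with Hox proteins. *Pdgfra* and *Pdgfrb* encode the receptors for platelet-derived growth factors, *Pdgfrb* being the one that pericytes and mesangial cells need. *Ntn1* encodes netrin-1, a secreted guidance protein that the stroma makes and that acts on the growth of vessels in the kidney.

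Values are CPM scaled by the authors' normalisation factors, called normalised CPM, and each fold change is on the scale of log2(normalised CPM + 1), on which the change of low genes is understated. The libraries held 13 to 52.5 M reads on genes, and 3 reads, taken as the limit of detection, corresponded to 0.0605 to 0.223 normalised CPM. A gene was called when its limma p-value, adjusted over all genes tested in that comparison, was under 0.05. The 3 libraries titled E12.5 with the number 1 stood apart. The E12.5 UB library with this number held 1753 normalised CPM over 24 other stromal genes against 466 to 545 in the rest of its group, 512 over 8 nephron progenitor markers against 54.9 to 86.7, and 1729 over 7 ureteric bud markers against 2707 to 2846. It also held 78.6 over 5 endothelial markers against 2.60 to 5.12. In the E12.5 SP library, the stromal sum was 8579 against 12310 to 12940. The E12.5 NP library had 1606 over the nephron progenitor markers against 2409 to 2624. Where a call of a member depends on these 3 libraries, the values with and without them are given. The library iNP 2 also correlated less with its group (mean r = 0.9735, against 0.9886 to 0.9894).

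*Foxd1* (GRCm38, chromosome 13, 98354242 to 98359305) was highest in ex-fetu SP. It stood at 265, 367, 447 and 563 normalised CPM in the 4 E11.5 SP libraries and at 546, 717, 758 and 649.7 in the E12.5 SP libraries. The same gene gave 11.4, 19.2, 17.3 and 12.9 in iSP. All 4 iSP libraries were far below every ex-fetu SP library, and they also lay below every ex-fetu NP library, of which the E11.5 ones read 92.9, 56.7, 57.1 and 44.3 and the E12.5 ones 54.2, 46.5, 45.8 and 52.1. In iNP the values were 8.86, 7.02, 6.38 and 6.05, and in eUB 29.5, 16.6, 14.99 and 19.3. The iSP and eUB libraries overlapped, and the 4 eUB libraries lay above all 4 E11.5 UB libraries, which held 2.58, 2.81, 2.08 and 2.56. The E12.5 UB libraries held 15.4, 1.89, 1.78 and 3.77, the first of them being the library that stood apart. In the order of group means, E12.5 and E11.5 SP overlapped each other, as did the NP groups of both ages, and a gap without overlap separated ex-fetu SP from NP and NP from all mESC-derived groups.

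The promoter window of *Foxd1* is shown because *Foxd1* differed most between iSP and ex-fetu SP, and that of *Pdgfra* because it is the gene of the sort gate. Both are the 250 bases before the RefSeq start (GRCm38.p6), 5′ to 3′ on the strand of the gene. Capitals mark TGACAG, letters to which MEIS proteins are known to bind.
Foxd1, chr13:98353995-98354244, plus strand: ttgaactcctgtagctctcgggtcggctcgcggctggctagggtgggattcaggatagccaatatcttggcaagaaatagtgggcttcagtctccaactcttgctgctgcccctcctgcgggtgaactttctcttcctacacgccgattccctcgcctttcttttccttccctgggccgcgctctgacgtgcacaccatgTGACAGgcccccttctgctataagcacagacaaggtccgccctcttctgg
Pdgfra, chr5:75152001-75152250, plus strand: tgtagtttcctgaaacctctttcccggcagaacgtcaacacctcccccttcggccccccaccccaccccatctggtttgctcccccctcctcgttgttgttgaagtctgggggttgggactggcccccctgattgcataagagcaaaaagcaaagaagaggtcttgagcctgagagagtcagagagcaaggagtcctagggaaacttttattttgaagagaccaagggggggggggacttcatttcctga
These letters were searched on both strands and started 50 bases before the start of *Foxd1*. Of the 32851 RefSeq starts, 15.9% held them in a window of this length. Windows were found for 6 of the 9 members (*Foxd1*, *Meis1*, *Meis2*, *Meis3*, *Tcf21* and *Pdgfra*), and 1 of the 6 held the MEIS letters. The E-box CAGCTG, to which TCF21 binds with its partners, was in 13% of all windows. The forkhead letters TGTTTAC were in 3.17% of all windows. The letters TGATNNAT, bound by PBX together with HOX proteins, were in 7.68%. None of these other motifs was found in the 6 windows on either strand, so none overlapped the MEIS letters. A match describes the letters only.

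*Tcf21* (chromosome 10, 22817281 to 22820174) was spread widely within the ex-fetu groups. E11.5 SP gave 44.1, 42.6, 80.7 and 142 normalised CPM and E12.5 SP 52.1, 111, 102 and 96.4. In iSP it was 15.5, 22.2, 18.9 and 17.7. iNP held more, 35.8, 43.2, 36.9 and 32.9, so that the mESC-derived groups stood in the opposite order to the ex-fetu ones. The E11.5 NP libraries read 8.61, 19.7, 14.3 and 23.97 and overlapped with iSP, and the E12.5 NP libraries 19.9, 58.2, 38.5 and 47.6. All 4 eUB libraries were at 0, the E11.5 UB libraries were between 0.302 and 1.09, and the E12.5 UB libraries held 18.1, 0.331, 0.686 and 0.773.

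*Meis1* (chromosome 11, 18879817 to 19018985) was the member whose level was most alike in the 3 stromal groups. It was at 289, 343, 282 and 265 normalised CPM in E11.5 SP, 185, 268, 298 and 284 in E12.5 SP and 267, 296, 291 and 272 in iSP. These groups overlapped one another and lay above every NP and UB library: 119, 121, 125 and 136 in E11.5 NP, 80.3, 89.9, 131 and 112 in E12.5 NP and 154, 149.7, 169 and 169 in iNP. Apart from the E12.5 UB library that stood apart (46.5), the UB libraries of both ages and of eUB ran from 0.960 to 4.06. *Meis1* shares 1029 exonic bases with *Gm37818* on its own strand and 896 with *Gm16140* on the other, and how the counting used strand is not stated, so some of its reads may have been assigned elsewhere.

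*Meis2* (chromosome 2, 115863064 to 116065839) was highest in iSP, at 626, 624, 648 and 648 normalised CPM. Every iSP library lay above all SP libraries of both ages, which held 366, 457, 474 and 469 at E11.5 and 386, 589, 598 and 601 at E12.5. The NP groups followed with 296, 328, 328 and 346 at E11.5, 239, 396, 432 and 438 at E12.5 and 270.2, 193, 274 and 258 in iNP. E12.5 NP overlapped with E12.5 SP, and the E11.5 NP and iNP groups overlapped with neither SP nor iSP. UB and eUB libraries were at 6.63 to 14.7, except for 120.2 in the E12.5 UB library that stood apart.

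*Meis3* (chromosome 7, 16175090 to 16186504) did not follow the stromal gate. SP held 129.8, 136, 119 and 89.2 normalised CPM at E11.5 and 75.3, 52.6, 69.9 and 60.1 at E12.5, while NP held 132, 99.9, 103 and 81.4 at E11.5 and 90.5, 67.3, 84.5 and 72.1 at E12.5. Both mESC-derived groups were lower, with 18.2, 23.1, 24.8 and 18.8 in iSP and 20.7, 27.9, 22.99 and 21.1 in iNP. Neither of the 2 overlapped an ex-fetu SP or NP group, and they overlapped each other. The UB libraries ran from 1.89 to 9.07 but for 22.5 in the library that stood apart, and eUB from 1.59 to 2.55.

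*Pbx3* (chromosome 2, 34171457 to 34373142) had the narrowest range of the 9. Group means ran from 17.1 ± 2.30 normalised CPM (SD, n = 4) in eUB to 87.00 ± 14.4 in E11.5 SP. The 4 iSP libraries read 74.7, 77.3, 73.8 and 73.2, within the range of E11.5 SP (105, 90.98, 81.4 and 70.8) and above all E12.5 SP libraries (45.4, 60.8, 56.95 and 60.4). iNP (64.05, 53.6, 65.4 and 67.5) overlapped with both NP groups, of which E11.5 NP held 56.6, 58.3, 49.3 and 61.5 and E12.5 NP 28.01, 62.8, 56.1 and 58.4.

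Of the receptor genes, *Pdgfra* (chromosome 5, 75152292 to 75198215) followed the gate. It was at 349, 350.5, 337 and 337 normalised CPM in E11.5 SP, 204, 612, 551 and 622 in E12.5 SP and 363, 425, 434 and 417 in iSP. E11.5 NP libraries held 3.04, 2.32, 2.77 and 1.98 and E12.5 NP libraries 7.26, 2.13, 1.52 and 1.34, while iNP libraries held 44.9, 17.7, 33.9 and 30.04. The iNP libraries thus lay above every ex-fetu NP library and below every stromal one. It shares 456 exonic bases with *Gm42802* and 166 with *Gm42803* on the other strand.

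*Pdgfrb*, which was not a gate gene, gave 145, 168, 142 and 158 normalised CPM in E11.5 SP, 176, 202, 213 and 183 in E12.5 SP and 264, 275, 279 and 268 in iSP. E11.5 NP held 6.16, 7.15, 6.18 and 5.91 and E12.5 NP 31.5, 9.59, 9.01 and 9.96. In iNP it was 155, 75.4, 129 and 118. The highest iNP library was within the range of E11.5 SP, and all 4 were above the ex-fetu NP libraries, including the E12.5 NP library that stood apart (31.5). The eUB libraries, at 8.32 to 9.66, were above the E11.5 UB ones, at 2.74 to 3.82.

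*Ntn1* (chromosome 11, 68209364 to 68400823), the secreted member, rose with age in the ex-fetu stroma and was lowest of the stromal groups in iSP. E11.5 SP libraries held 76.1, 93.6, 152 and 199 normalised CPM, E12.5 SP libraries 279, 755, 740.3 and 901 and iSP libraries 47.7, 50.2, 55.8 and 41.6. The 3 stromal groups did not overlap, and each lay above the NP group of its source. NP libraries ran from 14.5 to 29.6 at E11.5 and from 25.6 to 39.1 at E12.5, and iNP libraries held 13.9, 11.97, 16.2 and 15.6. Within E11.5 SP the library with the most *Ntn1* was also the one with the most *Foxd1* and *Tcf21* and the least *Meis3* and *Pbx3*. That library had the highest summed erythroid markers (159 against 4.97 to 22.7 over 5 genes) and endothelial markers (37.3 against 14.6 to 21.1 over 5 genes) and the lowest summed ureteric bud markers (128 against 234 to 299 over 7 genes), whose part in these values was not tested. In bulk samples, fewer cells of a type and less RNA per cell cannot be told apart.

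**Figure D1:**
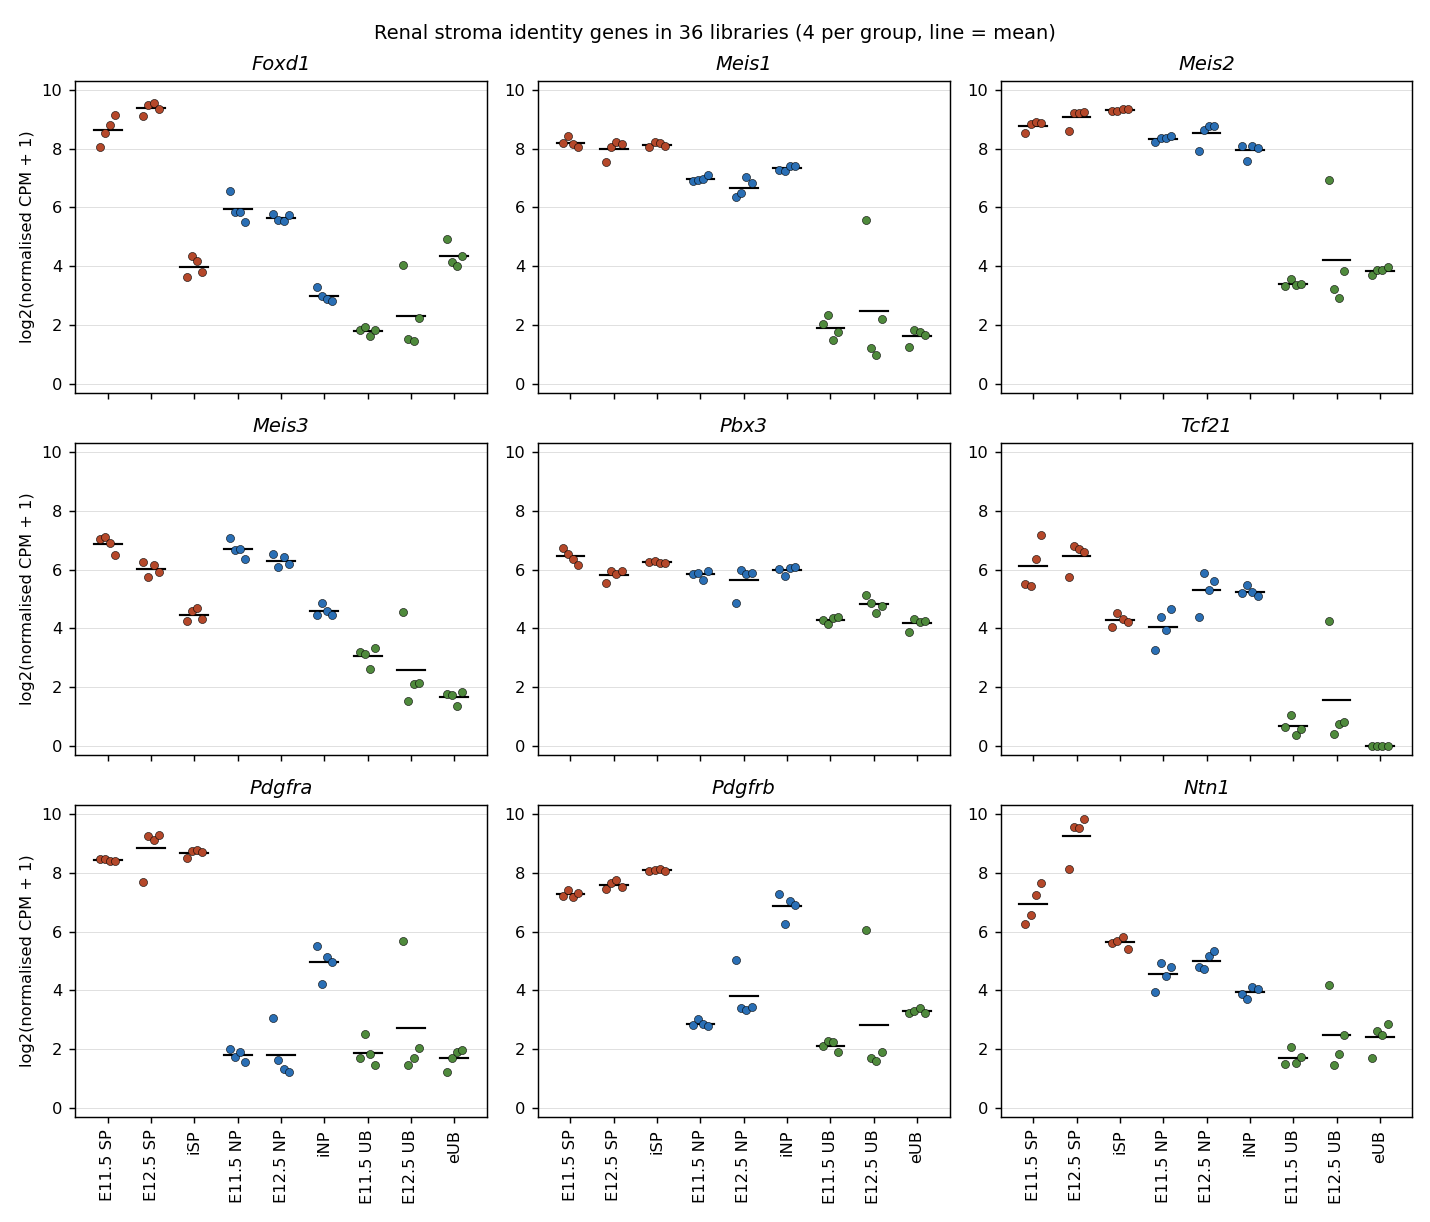
Each panel plots a gene in 9 groups (horizontal axis), with log2(normalised CPM + 1) on the vertical axis, a point for each of 4 libraries and a line for their mean; red-brown marks stromal, blue nephron progenitor and green ureteric bud groups. *Foxd1*, *Meis3*, *Tcf21* and *Ntn1* sit lower in iSP than in SP of either age, *Pdgfrb* in iNP sits far above ex-fetu NP, and 1 of the 4 E12.5 UB libraries lies above the others in most panels.

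Divided by exon length, which allows genes to be set beside each other, *Foxd1* had the highest mean of the 9 in ex-fetu SP and the lowest in iSP. In E11.5 SP the means per kilobase were 81.04 normalised CPM for *Foxd1*, 37.4 for *Meis3*, 36.7 for *Meis2* and 34.3 for *Pdgfra*. The remaining 5 lay between 14.2 (*Pbx3*) and 32.9 (*Tcf21*). In E12.5 SP they were led by *Foxd1* at 132 and *Ntn1* at 107 per kilobase. In iSP they were led by *Meis2* at 52.9, *Pdgfrb* at 49.5 and *Pdgfra* at 40.9, and ended with *Tcf21* at 7.91, *Ntn1* at 7.78, *Meis3* at 6.69 and *Foxd1* at 2.999.

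The first comparison asked how far the members differed between stromal and nephron progenitors in each source. They were chosen as stromal genes with earlier results of these data known, so the count higher in SP is no independent test. At E11.5, 7 of the 8 members other than *Pdgfra* were higher in SP and the remaining one, *Meis3*, was not called, where 22.2% of all 13655 genes tested were called higher in SP and 21.0% lower. The median log2 fold change of the 8 was 1.64, against -0.03 for all genes. *Pdgfrb* led with 4.39 (standard error 0.10, adjusted p = 8.0e-09), followed by *Foxd1* with 2.69 (standard error 0.26, adjusted p = 3.4e-05), *Ntn1* with 2.39 (standard error 0.31, adjusted p = 2.3e-04) and *Tcf21* with 2.06 (standard error 0.41, adjusted p = 0.00279). The homeobox genes differed less: *Meis1* by 1.23 (standard error 0.10, adjusted p = 8.8e-06), *Pbx3* by 0.61 (standard error 0.13, adjusted p = 0.00389) and *Meis2* by 0.44 (standard error 0.10, adjusted p = 0.0068). The mean of *Foxd1* was 6.54 times that of NP and the mean of *Pdgfrb* 24.1 times. For *Meis3* the difference was 0.19 (standard error 0.17, adjusted p = 0.399), with a 95% confidence interval of -0.19 to 0.57. Beside the members, 5 of 7 ureteric bud markers and both erythroid markers tested were also higher in E11.5 SP (median log2 fold changes of 1.84 and 2.49), and their part in the members' values was not tested. The call of *Meis2* was lost in a fit of all 36 samples (adjusted p = 0.449), which estimates 1 spread for all 9 groups.

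At E12.5, 5 of these 8 members were higher in SP and 3 were not called, where 17.8% of 13772 genes were called higher and 17.0% lower. Of the markers of other cells, all 4 erythroid markers tested were also higher in SP (median 3.86), as were 2 of 5 endothelial markers, while of 7 ureteric bud markers 2 were higher and 3 lower. Their part in the members' values was not tested. *Ntn1* differed most, by 4.25 (standard error 0.34, adjusted p = 1.2e-05), or 21.1 times in the ratio of means. *Pdgfrb* differed by 3.8 (standard error 0.34, adjusted p = 2.5e-05), *Foxd1* by 3.72 (standard error 0.13, adjusted p = 1.8e-07) and *Meis1* by 1.32 (standard error 0.20, adjusted p = 6.5e-04). The difference of *Tcf21* was 1.16 (standard error 0.34, adjusted p = 0.0254), and its groups overlapped. Its call was lost without SP library 2, 3 or 4 or NP library 3 (adjusted p = 0.0581 to 0.0750) and in the fit of all 36 samples (adjusted p = 0.058). *Meis2*, *Meis3* and *Pbx3* were at 0.55, -0.28 and 0.18 and were not called (adjusted p = 0.0915, 0.181 and 0.625). The numbers of the E12.5 SP and NP libraries paired them, and a fit with that number as a block called *Meis2* higher in SP (adjusted p = 0.000597) and *Meis3* lower (adjusted p = 0.00807), while 7961 in place of 4789 genes were called in all. Without the E12.5 libraries numbered 1, *Meis2* was at 0.50 (adjusted p = 0.00597), and without the SP library alone at 0.70 (adjusted p = 0.0295).

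Among the mESC-derived cells, 5 of the 8 members were higher in iSP than in iNP and *Tcf21* was lower, where 14.2% of 14052 genes were called higher and 16.5% lower. *Ntn1* differed by 1.69 (standard error 0.12, adjusted p = 6.7e-06), *Meis2* by 1.37 (standard error 0.12, adjusted p = 2.0e-05), *Pdgfrb* by 1.22 (standard error 0.19, adjusted p = 8.5e-04), *Foxd1* by 0.99 (standard error 0.18, adjusted p = 0.00212) and *Meis1* by 0.81 (standard error 0.08, adjusted p = 4.5e-05). *Tcf21* went the other way, by -0.97 (standard error 0.12, adjusted p = 2.7e-04), its mean in iNP being 2.003 times that in iSP. No library of either group crossed into the range of the other for these 6 genes, where 37.6% of all genes had groups that did not overlap. *Pbx3* missed the threshold with 0.26 (standard error 0.09, adjusted p = 0.0508) although its groups did not overlap, and edgeR on the recovered reads called it (adjusted p = 0.0489), as did limma without iNP library 2 (adjusted p = 0.0123). *Meis3* was at -0.12 (standard error 0.13, adjusted p = 0.521), with an interval of -0.42 to 0.18. Markers of other cells were mostly lower in iSP: 5 of 7 ureteric bud (median -1.34; 2 were higher), 4 of 5 neural (median -1.59) and 3 of 5 endothelial markers. Their part in the members' values was not tested. In the fit of all 36 samples, *Meis1*, *Tcf21* and *Pdgfrb* were not called here (adjusted p = 0.24, 0.158 and 0.0829).

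**Figure D2:**
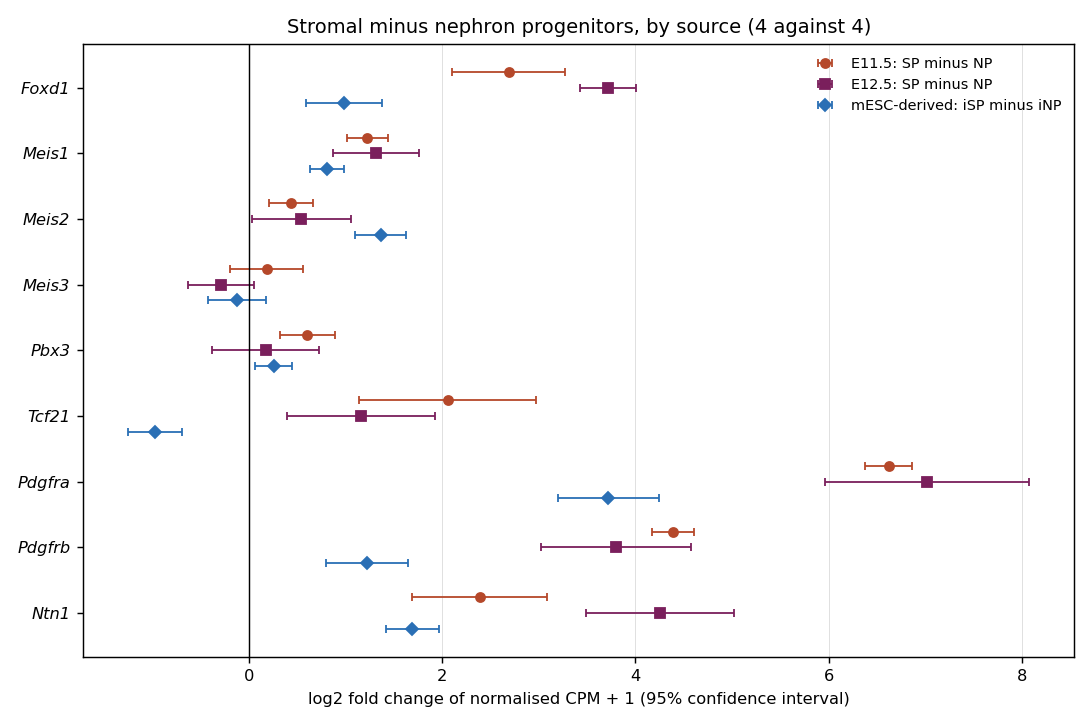
The horizontal axis gives the log2 fold change of normalised CPM + 1 between stromal and nephron progenitors with its 95% confidence interval, for 9 genes (vertical axis) in cells of E11.5 (circles), E12.5 (squares) and mESC origin (diamonds). *Tcf21* lies right of 0 in both ex-fetu sources (2.06 and 1.16) and left of it in mESC-derived cells (-0.97). *Pdgfrb* differs by 4.39 and 3.80 in ex-fetu and by 1.22 in mESC-derived cells. Its level was higher in iSP than in E11.5 SP (0.82) and in iNP than in E11.5 NP (3.99).

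Whether the stromal difference itself depended on the source was tested with an interaction term over the 4 groups concerned, which share iSP and iNP in both tests. Against E11.5, the log2 difference, stromal minus nephron progenitors, was lower in mESC-derived cells for 4 of the 8 members (17.4% of 14846 genes were called in this direction) and higher for *Meis2* (11.9% in that direction). It kept its sign in all of these but *Tcf21*. The test does not say which side differed. Against the E11.5 cells, *Pdgfrb* was higher in iSP (0.82) and in iNP (3.99), and *Foxd1* was lower in both (-4.64 and -2.94). *Tcf21* was lower in iSP (-1.83) and higher in iNP (1.2). *Meis1* was at -0.06 in iSP (not called) and 0.36 in iNP, and *Meis2* at 0.53 and -0.39. The stromal minus nephron difference was also lower for all 7 ureteric bud markers (median -1.998), both erythroid markers tested, 3 of 5 neural and 2 of 5 endothelial markers. Of 8 nephron progenitor markers it was higher for 5 and lower for 2 (median 1.19). Their part in the members' values was not tested. The changes were -3.17 (standard error 0.22, adjusted p = 2.4e-08) for *Pdgfrb*, -3.03 (standard error 0.46, adjusted p = 9.5e-05) for *Tcf21*, -1.7 (standard error 0.33, adjusted p = 9.7e-04) for *Foxd1*, -0.42 (standard error 0.12, adjusted p = 0.0164) for *Meis1* and 0.93 (standard error 0.16, adjusted p = 2.9e-04) for *Meis2*. *Ntn1* was at -0.69 (standard error 0.36, adjusted p = 0.165), which was not called, but without E11.5 SP library 1 it was at -0.92 (adjusted p = 0.048). *Pbx3*, at -0.35 (standard error 0.16, adjusted p = 0.11), was called without E11.5 SP library 4 or iNP library 2 (adjusted p = 0.0282 and 0.036). Against E12.5, the difference was lower for 4 members (14.5% of 14931 genes in this direction) and higher for *Meis2* (9.35%). It was lower too for all 4 erythroid markers tested, 4 of 5 neural, 2 of 5 endothelial and 1 of 7 ureteric bud markers. Of 8 nephron progenitor markers it was higher for 5 and lower for 2 (median 2.48). The part of these markers in the members' values was not tested. The members were *Foxd1* with -2.73 (standard error 0.23, adjusted p = 1.6e-07), *Pdgfrb* with -2.57 (standard error 0.42, adjusted p = 1.9e-04), *Ntn1* with -2.56 (standard error 0.38, adjusted p = 9.1e-05) and *Tcf21* with -2.13 (standard error 0.39, adjusted p = 5.3e-04), while *Meis2* was at 0.82 (standard error 0.27, adjusted p = 0.0335). *Meis1* was at -0.51 (standard error 0.22, adjusted p = 0.112) and not called, but it was called with the replicate block (adjusted p = 0.0424), without E12.5 SP library 1 or E12.5 NP library 3 (adjusted p = 0.0144 and 0.0423), and without both E12.5 libraries numbered 1, at -0.55 (adjusted p = 0.0168). The *Meis2* call against E12.5 was lost without any of 9 of the 16 libraries (adjusted p = 0.0525 to 0.0750). These were NP 2, 3 or 4 or SP 1 of E12.5, iNP 2 and each iSP library. Without E12.5 SP library 1, *Meis2* was at 0.66 (adjusted p = 0.0590). The call was also lost with quantile normalisation and in the fit of all 36 samples, which ended the calls of *Meis1* and *Meis2* against E11.5 too.

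The ureteric bud served as the epithelial contrast. All 8 members other than *Pdgfra* were higher in E11.5 SP than in E11.5 UB (26.7% of 14117 genes were called in this direction), with log2 fold changes from 2.15 (*Pbx3*) to 6.82 (*Foxd1*). The same 8 were higher in E12.5 SP than in E12.5 UB (21.8% of 14079 genes), from 1.0 (*Pbx3*) to 7.05 (*Foxd1*), and exchanging the UB groups of the 2 ages changed none of these calls. Without the E12.5 UB library that stood apart, all 8 differences were larger, from 1.11 for *Pbx3* to 7.62 for *Foxd1*, each still called, and *Meis1* went from 5.5 to 6.53. In mESC-derived cells 7 of the 8 were higher in iSP than in eUB (32.7% of 14206 genes). *Foxd1* was the exception, with -0.36 (standard error 0.22, adjusted p = 0.18) and a 95% confidence interval of -0.87 to 0.14. The 4 iSP libraries averaged 15.2 ± 3.67 normalised CPM (SD) and the 4 eUB libraries 20.1 ± 6.51, and the groups overlapped. The iSP mean of *Meis1* was 132 times its eUB mean, that of *Meis2* 47.2 times and that of *Pdgfrb* 30.9 times. For *Tcf21*, at 0 in every eUB library, 3 reads in the shallowest of them set the bound, and iSP was at least 83.4-fold higher. Markers of other cells differed too. All 5 macrophage markers were lower in SP than in UB at E11.5 and E12.5 (medians -2.98 and -2.52). The erythroid markers tested, 2 and 4, were all higher. Of 5 endothelial markers, 4 were higher and 1 lower in iSP than in eUB. The part of these markers in the members' values was not tested.

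The second comparison set iSP beside the ex-fetu stroma. Against E11.5 SP, 3 of the 9 members were higher in iSP, 4 were lower and 2 were not called, where 35.5% of 13916 genes were called higher and 32.1% lower. Leaving out *Pdgfra*, whose protein gated both sorts, 2 of 8 were higher, 4 lower and 2 not called. The part of the gates in the *Pdgfra* value was not tested. *Foxd1* differed most, by -4.64 (standard error 0.23, adjusted p = 3.4e-07), its mean in E11.5 SP being 27.02 times that in iSP. *Meis3* differed by -2.42 (standard error 0.15, adjusted p = 1.1e-06), *Tcf21* by -1.83 (standard error 0.34, adjusted p = 0.00101) and *Ntn1* by -1.3 (standard error 0.27, adjusted p = 0.00184). Those higher in iSP were *Pdgfrb* with 0.82 (standard error 0.08, adjusted p = 1.1e-05), *Meis2* with 0.53 (standard error 0.10, adjusted p = 8.3e-04) and *Pdgfra* with 0.25 (standard error 0.08, adjusted p = 0.0177). The groups of these 7 did not overlap, as for 62.2% of all genes tested. *Meis1* was at -0.06 (standard error 0.09, adjusted p = 0.573) with an interval of -0.27 to 0.15, and *Pbx3* at -0.20 (standard error 0.11, adjusted p = 0.139) with an interval of -0.46 to 0.05. Without E11.5 SP library 4, *Pbx3* was called lower in iSP, at -0.30 (adjusted p = 0.0149). *Pdgfra* was not called without iSP library 2 or 3 (adjusted p = 0.0535 and 0.0633), and *Pdgfra*, *Pdgfrb* and *Meis2* were not called in the fit of all 36 samples (adjusted p = 0.706, 0.174 and 0.284).

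Against E12.5 SP, 2 of the 9 members were higher in iSP, 4 were lower and 3 were not called, where 33.3% of 13903 genes were called higher and 28.8% lower. Leaving out the gate gene *Pdgfra*, 2 of 8 were higher, 4 lower and 2 not called. The lower ones were *Foxd1* with -5.39 (standard error 0.17, adjusted p = 2.4e-08), *Ntn1* with -3.63 (standard error 0.32, adjusted p = 1.1e-05), *Tcf21* with -2.18 (standard error 0.22, adjusted p = 3.0e-05) and *Meis3* with -1.56 (standard error 0.14, adjusted p = 1.5e-05). In ratios of means, E12.5 SP held 43.97 times the *Foxd1* and 13.7 times the *Ntn1* of iSP. *Pdgfrb* and *Pbx3* were higher in iSP, by 0.49 (standard error 0.08, adjusted p = 6.4e-04) and 0.42 (standard error 0.10, adjusted p = 0.00602). *Meis1*, *Meis2* and *Pdgfra* were at 0.14, 0.25 and -0.15 and were not called. Without the E12.5 SP library numbered 1, *Pdgfra* was called lower in iSP, at -0.54 (adjusted p = 0.000227). *Pdgfrb* was not called in the fit of all 36 samples (adjusted p = 0.436).

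Markers of other cells were summed in the same libraries, and their part in the members' values was not tested. The sums over 8 nephron progenitor markers overlapped between iSP (308 to 350 normalised CPM) and E11.5 SP (317 to 357), as did those over 5 endothelial markers (30.3 to 47.1 and 14.6 to 37.3). For the endothelial sum, only E11.5 SP library 4 reached the iSP range, the rest of its group being at 14.6 to 21.1. Of the single genes, 2 of the 8 were higher and 4 lower in iSP, and 3 of the 5 endothelial markers were higher, where 35.5% of all genes were called higher and 32.1% lower. In E12.5 SP these sums were 328 to 582 and 18.5 to 25.0. The sum over 7 ureteric bud markers was 83.3 to 94.2 in iSP, 128 to 299 in E11.5 SP and 86.5 to 123 in E12.5 SP, and 4 of the 7 were lower in iSP than in E11.5 SP (32.1% of all genes), while 4 were higher than in E12.5 SP (33.3% of all genes). The sum over 5 paraxial mesoderm markers was 176 to 197 in iSP and 26.9 to 32.6 in E11.5 SP (24.4 to 34.2 in E12.5 SP). In nephron progenitors it was 111 to 122 at E11.5, 84.6 to 197 at E12.5 and 143 to 161 in iNP. Of these markers, 4 were tested, and 3 were higher in iSP than in E11.5 SP (35.5% of all genes) and 1 was not called. *Meox1*, a somite homeobox gene, made up 172 ± 10.01 of the sum in iSP and 16.3 ± 1.97 in E11.5 SP (mean ± SD of 4 libraries). Erythroid markers reached 0.0483 in iSP, where 4 of the 5 were at 0 in every library, and ran from 4.97 to 159 in E11.5 SP and from 42.0 to 389.8 in E12.5 SP. Macrophage markers were under 2 in all SP and iSP libraries.

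**Figure D3:**
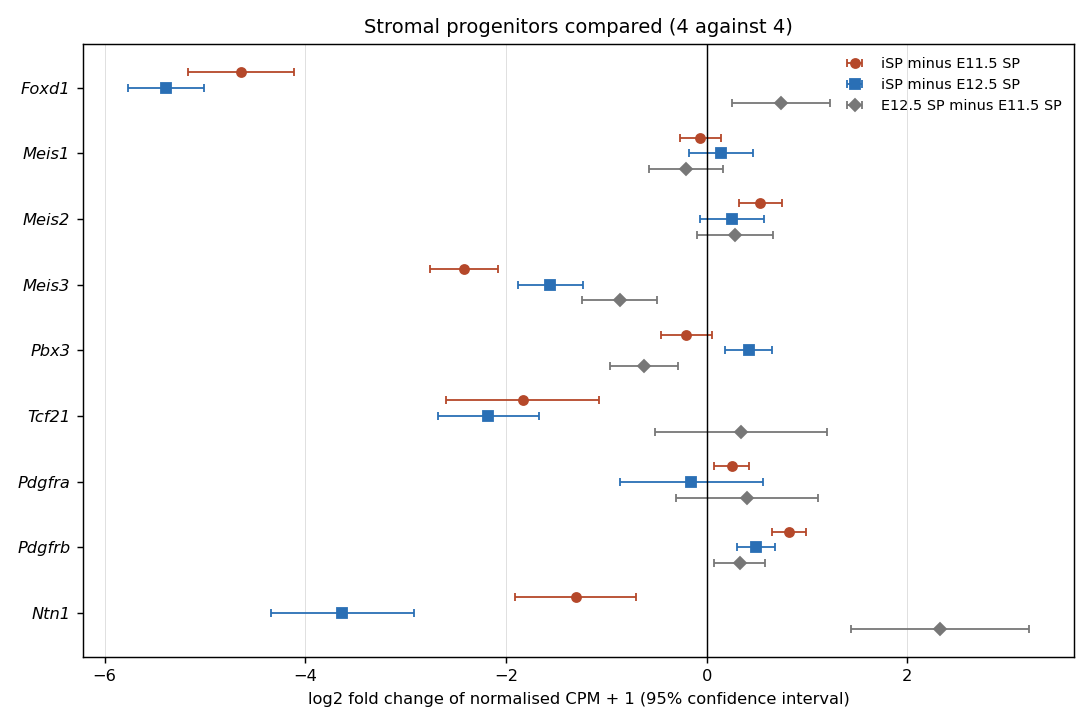
The horizontal axis gives the log2 fold change of normalised CPM + 1 with its 95% confidence interval for 9 genes (vertical axis): iSP against E11.5 SP (circles), iSP against E12.5 SP (squares) and E12.5 against E11.5 SP (diamonds). *Foxd1* is far left of 0 in both comparisons with iSP (-4.64 and -5.39), *Meis1* is near 0 in each, and *Ntn1* lies right of 0 (2.33) between the ages.

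Age within the ex-fetu stroma was compared to set a scale for these differences. Of the 9 members, 1 (*Ntn1*) was higher at E12.5, 2 were lower and 6 were not called, where 3.73% of 13633 genes were called higher and 4.80% lower. Leaving out the gate gene *Pdgfra*, 1 of 8 was higher, 2 were lower and 5 were not called. *Ntn1* rose by 2.33 (standard error 0.40, adjusted p = 0.00881), to 5.13 times its E11.5 mean. *Meis3* was lower at E12.5, at -0.86 (standard error 0.17, adjusted p = 0.0144), and so was *Pbx3*, at -0.62 (standard error 0.15, adjusted p = 0.0353), without overlap between the ages (15.6% of all genes tested had none). Between the ages 5 of 7 ureteric bud markers were lower at E12.5 (median -1.43), and the 4 erythroid markers tested had a median of 2.35 and were not called. Their part in the members' values was not tested. The remaining 6 members were at 0.74 for *Foxd1*, 0.41 for *Pdgfra*, 0.34 for *Tcf21*, 0.33 for *Pdgfrb*, 0.28 for *Meis2* and -0.21 for *Meis1*. Without the E12.5 SP library numbered 1, 7 members were called: *Foxd1*, *Meis2*, *Pdgfra* and *Pdgfrb* were then higher at E12.5, with 0.84 (adjusted p = 0.0332), 0.44 (adjusted p = 0.0318), 0.79 (adjusted p = 0.00136) and 0.37 (adjusted p = 0.0368). Without E11.5 SP library 1, 2 or 3 or E12.5 SP library 4, *Ntn1* alone was called. The *Pbx3* call was also lost without E12.5 SP library 2 or 3 (adjusted p = 0.0649 and 0.0948), and that of *Meis3* in the fit of all 36 samples (adjusted p = 0.067). *Foxd1* was called higher at E12.5 with quantile normalisation (adjusted p = 0.0432) and without E11.5 SP library 4 (adjusted p = 0.0192).

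The members were also compared in the other progenitors. Between iNP and E11.5 NP, 4 of the 9 were higher in iNP, 4 were lower and 1 was not called, where 35.5% of 14064 genes were called higher and 29.2% lower. Both receptor genes were higher in iNP, *Pdgfrb* by 3.99 (standard error 0.19, adjusted p = 2.4e-07) and *Pdgfra* by 3.15 (standard error 0.24, adjusted p = 4.1e-06). These were 18.8 and 12.5 times in the ratio of means. *Tcf21* was higher in iNP by 1.2 (standard error 0.26, adjusted p = 0.00251) and *Meis1* by 0.36 (standard error 0.09, adjusted p = 0.00458). *Foxd1* and *Meis3* were lower in iNP, at -2.94 (standard error 0.21, adjusted p = 2.5e-06) and -2.11 (standard error 0.15, adjusted p = 2.8e-06). *Ntn1* and *Meis2* were lower too, at -0.61 (standard error 0.21, adjusted p = 0.0249) and -0.39 (standard error 0.12, adjusted p = 0.0178), the first call being lost without E11.5 NP library 2 or 4 or iNP library 1 and the second without E11.5 NP library 4 or with quantile normalisation. Markers of other cells differed too: all 5 endothelial markers (sums of 43.1 to 72.9 in iNP and 8.24 to 24.1 in E11.5 NP), 5 of 7 ureteric bud, 4 of 5 neural and 4 of 5 paraxial mesoderm markers were higher in iNP, and 7 of 8 nephron progenitor markers were lower (673 to 1133 and 1706 to 1918). Their part in the members' values was not tested. PDGFRA was a gate protein in both sorts, and the part of the gates in the *Pdgfra* value was not tested. *Pbx3*, at 0.15 (standard error 0.11, adjusted p = 0.25), was called with quantile normalisation (adjusted p = 0.0272) and without iNP library 2 (adjusted p = 0.031). *Meis1*, *Meis2* and *Ntn1* were not called in the fit of all 36 samples (adjusted p = 0.546, 0.44 and 0.178).

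Between eUB and E11.5 UB, 4 of the 8 members that passed the filter on low values were higher in eUB, 1 was lower and 3 were not called, where 32.1% of 13956 genes were called higher and 28.5% lower. *Tcf21*, at 0 in eUB, did not pass it. *Foxd1* was higher in eUB by 2.55 (standard error 0.19, adjusted p = 2.8e-06), or 8.01 times in the ratio of means. *Pdgfrb* was higher by 1.16 (standard error 0.11, adjusted p = 1.6e-05), *Meis2* by 0.44 (standard error 0.10, adjusted p = 0.0032) and *Ntn1* by 0.69 (standard error 0.24, adjusted p = 0.0299), and *Meis3* was lower, at -1.39 (standard error 0.17, adjusted p = 7.2e-05). Since the UB labels contradict each other on age, eUB was also compared with the samples titled E12.5 UB. Of the 8 members only *Foxd1*, at 2.03 (adjusted p = 0.0126), and *Pbx3*, at -0.65 (adjusted p = 0.00818), were then called. Without the E12.5 UB library that stood apart, *Foxd1*, at 2.60, *Pbx3*, at -0.54, and *Pdgfrb*, at 1.55, were called. The calls of *Meis2*, *Meis3* and *Ntn1* were lost in both. All 5 macrophage markers (median -3.12) and the 3 paraxial mesoderm markers tested (median -1.22) were lower in eUB than in E11.5 UB. Of 6 nephron progenitor markers tested, 3 were higher and 2 lower, and of 7 ureteric bud markers 2 were higher and 1 lower. The part of these markers in the members' values was not tested. *Foxd1* thus moved in opposite directions in the 2 pairs: lower in iNP than in NP and higher in eUB than in UB, a difference of differences that was not tested. The call of *Ntn1* was lost without E11.5 UB library 1, 3 or 4 or eUB library 2, 3 or 4 (adjusted p = 0.0597 to 0.0854), and that of *Meis2* with quantile normalisation, under which *Pbx3* was called lower in eUB, at -0.32 (adjusted p = 0.0174). In the fit of all 36 samples *Meis2*, *Pdgfrb* and *Ntn1* were not called (adjusted p = 0.412, 0.0636 and 0.139).

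**Figure D4:**
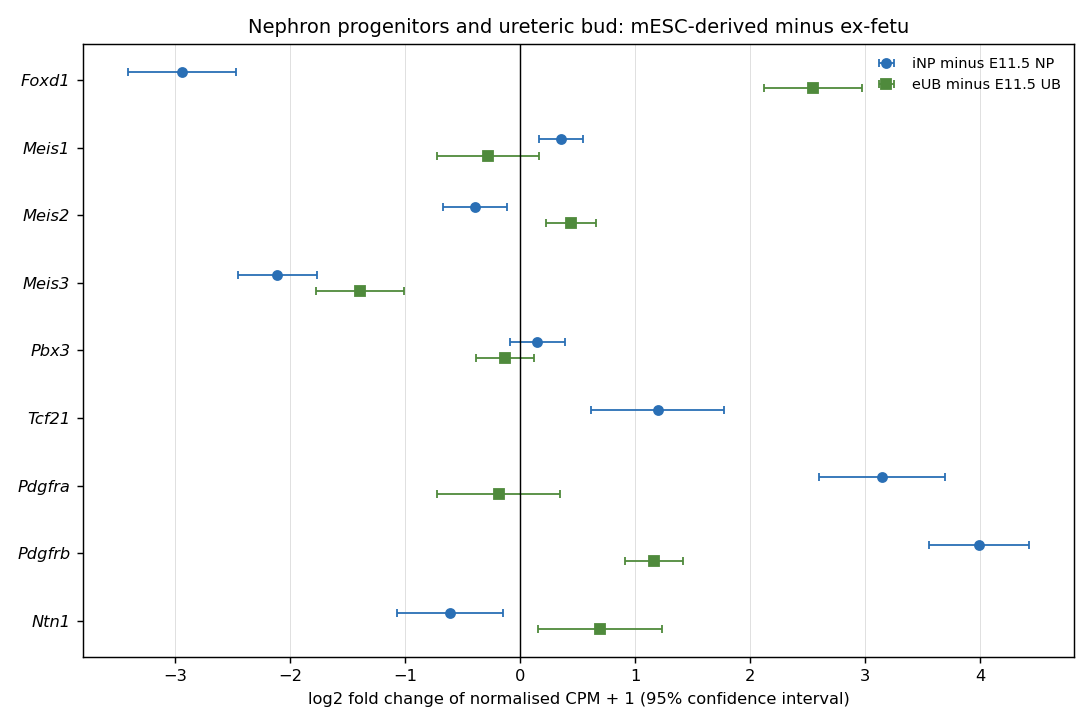
The horizontal axis gives the log2 fold change of normalised CPM + 1 with its 95% confidence interval for iNP against E11.5 NP (circles) and eUB against E11.5 UB (squares), for 9 genes (vertical axis). *Foxd1* lies at -2.94 in the first and 2.55 in the second, *Pdgfrb* lies right of 0 in both (3.99 and 1.16), and *Tcf21* has no eUB value because it was not tested there.

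A list of 24 other genes of the renal stroma was followed beside the members. It was also chosen with earlier results of these data known, so its counts are no independent test. Of the 23 tested at E11.5, 20 were higher in SP than in NP and 3 were not called, with a median log2 fold change of 1.76, where 22.2% of all genes were called higher. At E12.5 19 were higher (17.8% of all genes) and 4 were not called, with a median of 2.43. Of 21 tested between iSP and iNP, 13 were higher in iSP, 6 were lower and 2 were not called, with a median of 1.10, where 14.2% of all genes were called higher and 16.5% lower. The log2 difference itself was lower in mESC-derived cells than at E11.5, in some with a change of sign, for 13 of 23 (17.4% of all genes) and higher for 2 (11.9%). The 4 with the smallest p at E11.5 were *Col3a1*, a fibrillar collagen gene, *Sfrp1*, which encodes a secreted Wnt inhibitor, *Tbx18*, a T-box gene of the ureteric mesenchyme, and *Col1a1*. Their differences were 6.21, 2.71, 5.35 and 4.69 at E11.5 and 2.91, 2.69, 1.47 and 2.72 in mESC-derived cells, each called. Between iSP and iNP the smallest p was that of *Fibin*, with 3.85 (adjusted p = 2.0e-07). The 6 genes lower in iSP than in iNP, named after their values were seen, were *Bmp4* with -1.55 (adjusted p = 1.9e-06), *Ecm1* with -1.72 (adjusted p = 2.0e-05), *Aldh1a2* with -0.68 (adjusted p = 7.5e-05), *Foxc1* with -1.74 (adjusted p = 3.0e-04), *Foxc2* with -0.71 (adjusted p = 9.0e-04) and *Cspg4* with -1.18 (adjusted p = 0.00839). *Aldh1a2* encodes the enzyme that makes retinoic acid and *Bmp4* a bone morphogenetic protein.

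**Figure D5:**
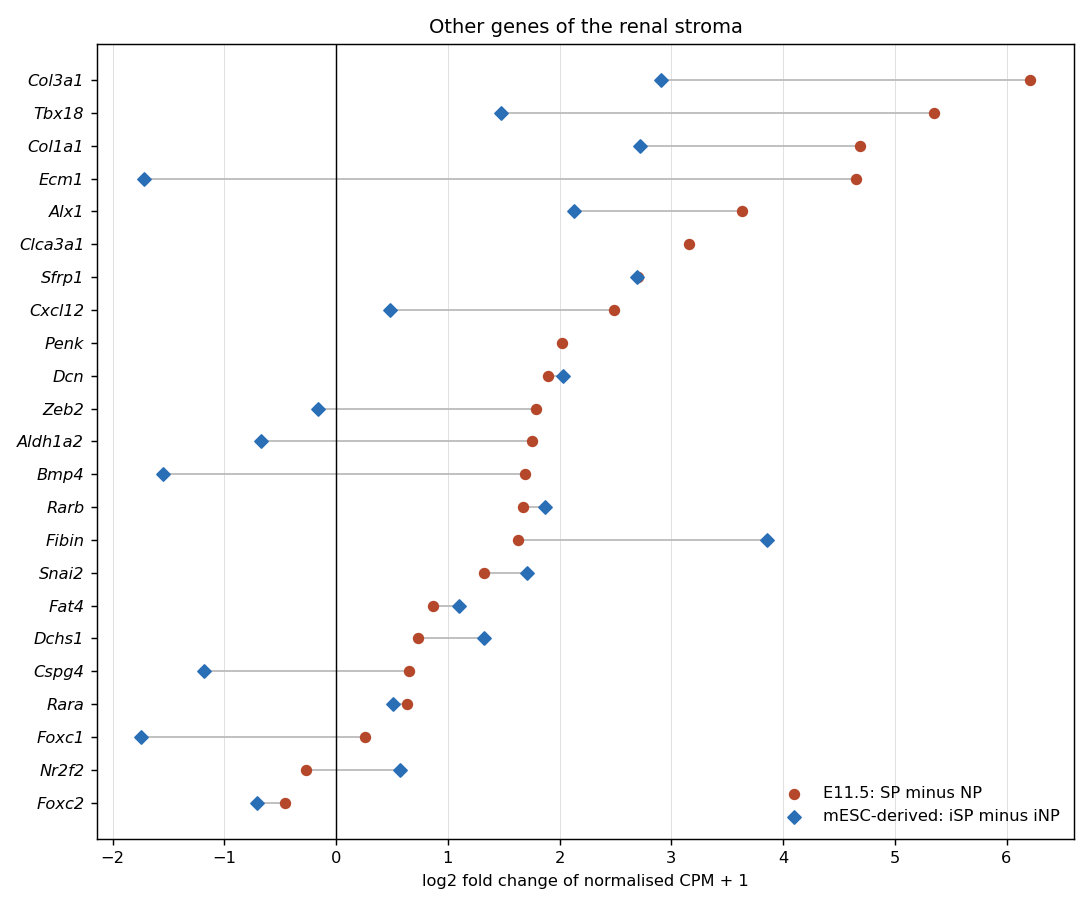
For each gene of the list (vertical axis), the horizontal axis gives the log2 fold change of normalised CPM + 1 between SP and NP at E11.5 (circles) and between iSP and iNP (diamonds), joined by a line where both were tested. *Ecm1*, *Aldh1a2*, *Bmp4*, *Cspg4*, *Zeb2* and *Foxc1* lie right of 0 at E11.5 and left of it in mESC-derived cells. The 0.26 of *Foxc1* at E11.5 and the -0.17 of *Zeb2* in mESC-derived cells were not called. *Sfrp1* (2.71 and 2.69) nearly coincides.

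Between iSP and E11.5 SP, 6 of 23 of these genes were higher in iSP, 15 were lower and 2 were not called, with a median of -1.13 against 0.04 for all genes, where 35.5% of all genes were called higher and 32.1% lower. The 4 with the smallest p were *Foxc1* with -5.25 (adjusted p = 1.3e-07), *Tbx18* with -2.58 (adjusted p = 2.7e-07), *Penk* with -3.04 (adjusted p = 4.3e-07) and *Sfrp1*, which was higher in iSP, with 1.13 (adjusted p = 1.5e-06). For *Foxc1*, a forkhead gene, the 4 E11.5 SP libraries averaged 262 ± 44.8 normalised CPM (SD) and the iSP libraries 6.10 ± 2.37. Against E12.5 SP, 2 were higher in iSP, 15 were lower and 6 were not called, with a median of -1.46 (33.3% of all genes higher and 28.8% lower). Between the ages, 6 were higher at E12.5, 1 (*Tbx18*) was lower and 16 were not called, with a median of 0.44 (3.73% of all genes higher and 4.80% lower).

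Of the 4 genes for PDGF, the ligands of the receptors, 3 were lower in iSP than in E11.5 SP (32.1% of all genes) and 1 was not called, with a median of -1.94: *Pdgfa* with -2.81 (adjusted p = 1.6e-07), *Pdgfb* with -3.37 (adjusted p = 2.9e-06) and *Pdgfc* with -1.06 (adjusted p = 2.0e-04). Against iNP, *Pdgfa*, *Pdgfc* and *Pdgfb* were again lower in iSP (16.5% of all genes), with -2.46 (adjusted p = 9.1e-07), -1.03 (adjusted p = 1.5e-05) and -0.63 (adjusted p = 0.0332). Between SP and NP, 2 of the 4 were higher in SP and 2 lower at either age. Of all genes, 22.2% were higher and 21.0% lower at E11.5, and 17.8% and 17.0% at E12.5.

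Among 7 other netrin and netrin receptor genes, 6 were tested between iSP and E11.5 SP, of which 3 were higher in iSP (35.5% of all genes), 1 was lower (32.1%) and 2 were not called. *Unc5c*, a netrin receptor gene, was lower with -1.96 (adjusted p = 1.5e-07), and *Unc5d*, *Ntn4* and *Neo1* were higher with 1.63 (adjusted p = 3.0e-06), 1.43 (adjusted p = 2.0e-04) and 0.30 (adjusted p = 0.0128). Between E11.5 SP and NP 1 of 5 was called higher in SP (22.2% of all genes), *Neo1*, with 0.35 (adjusted p = 0.0118), and between iSP and iNP 2 of 7 lower in iSP (16.5% of all genes), *Unc5a* and *Unc5b*, with -2.04 (adjusted p = 6.1e-06) and -0.41 (adjusted p = 0.0214). The list of *Tcf21* held its E-protein partners *Tcf3*, *Tcf4* and *Tcf12* and its near relative *Msc*. Between iSP and E11.5 SP, *Tcf4* and *Tcf12* were higher, with 0.88 (adjusted p = 8.1e-05) and 0.27 (adjusted p = 0.0409), and *Msc* was lower, with -1.41 (adjusted p = 5.6e-05). *Tcf3* was not called. Between iSP and iNP, *Tcf12* and *Tcf4*, of 3 tested, were higher in iSP (14.2% of all genes). Their values were 0.96 (adjusted p = 0.0107) and 0.43 (adjusted p = 0.0426), the opposite direction to *Tcf21*.

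How the members varied together was described by Pearson correlations of log2(normalised CPM + 1) over the 9 group means, which share libraries and cell types and are not independent. *Meis1* and *Meis2* were closest (r = 0.988, n = 9 groups), *Meis1* and *Pbx3* followed (0.975), and *Pdgfra* and *Pdgfrb* stood at 0.941. *Foxd1* was closest to *Ntn1* (0.892) and lower with every other member (0.507 to 0.735). *Meis3* and *Pdgfra* had the lowest value of any pair (0.403). Among 11300 genes with a mean of at least 10 normalised CPM in a group, the patterns most like *Tcf21* were *Aldh1a2* (0.980), *Ppp3ca* (0.980), *Shisa3* (0.979), *Itga9* (0.979) and *Smpd2* (0.979). The level of *Aldh1a2* averaged 759 ± 167 normalised CPM (SD of 4 libraries) in E11.5 SP, 1202 ± 183 in E12.5 SP and 176 ± 7.39 in iSP. Those most like *Ntn1* were *Col8a2* (0.984), *Usp13* (0.983), *Bnc2* (0.982), *Adcy2* (0.980) and *Adamts2* (0.978). For *Foxd1* they included *2700081O15Rik* (0.969), *Adamts20* (0.965), *1810055G02Rik* (0.964) and *Dgkh* (0.963).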

How the data were processed

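The deposited table gave 1 value per gene and sample. The authors trimmed the paired reads of a stranded mRNA kit (Cutadapt), mapped them (STAR) and deposited CPM scaled by edgeR normalisation factors, a depth-scaled signal. Their counting program and strand setting are not given in the sources used here. The study's methods write GRCh38 although the gene IDs are those of mouse, and positions here are from GENCODE vM21 (GRCm38), which held 99.48% of the IDs. Of the values, 100% were whole multiples of 1 read (tolerance 0.01 reads). A second table of the authors' log2 fold changes and p-values was not used.

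Tests used limma 3.58.1 (lmFit, eBayes with trend, R 4.3.3) on log2(value + 1) of the groups compared, over genes at 1 or more in at least 4 libraries, with Benjamini-Hochberg adjustment over all genes tested and a threshold of 0.05. Alternatives were edgeR 4.0.16 (quasi-likelihood) on the recovered reads, quantile normalisation, a pseudocount of 0.1, no filter, all 36 samples in the fit, a replicate block, UB of the other age and leaving out each library. With edgeR, 5863 genes were called between E11.5 SP and NP and 9402 between iSP and E11.5 SP (5891 and 9411 with limma). Replicate numbers paired E12.5 SP with NP, whose same-numbered libraries deviated together (r = 0.543 to 0.700), and this held in no other comparison of a pair of groups run here. The limma fit was also run on data simulated for E11.5 SP against NP and for the difference of differences against E11.5, with outcomes not reported here. Promoters came from RefSeq (GRCm38.p6). Members and gene lists were chosen with earlier results of these data known. Examples of a list are those with the smallest p, at most 4 per comparison, and genes alike in pattern the 5 with the highest correlation. Replicates are separate litters or differentiation batches. The limits of detection cover counting error only. *Ntn3* and *Ntn5* were not analysed here. Some genes that these rules would name, and the counts that rest on them, are not reported here.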

Additional observations from a re-analysis of the deposited data

Results flagged for a closer look

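In 12 of the 81 groups of 4 libraries tested over the 9 genes, the highest or lowest library stood apart from the rest by more than Dixon's 95% critical value. Chance flags about 1 in 20 groups. In E12.5 UB library 1 these were *Foxd1* (15.4 normalised CPM), *Meis1* (46.5), *Meis2* (120.2), *Meis3* (22.5), *Tcf21* (18.1), *Pdgfra* (50.8) and *Pdgfrb* (66.2), each the highest of its group. E12.5 NP library 1 was highest of its group for *Pdgfra* (7.26) and *Pdgfrb* (31.5). E12.5 SP library 1 was lowest of its group for *Meis2* (386) and *Pdgfra* (204), and E11.5 SP library 1 was lowest for *Meis2* (366).

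The stromal difference, iSP minus iNP against SP minus NP on the log2 scale, depended on the source for several members by a test of the difference itself. Against E11.5 it changed by -1.70 for *Foxd1*, -0.42 for *Meis1*, 0.93 for *Meis2*, -3.03 for *Tcf21*, -2.90 for *Pdgfra* and -3.17 for *Pdgfrb*. Against E12.5 it changed by -2.73 for *Foxd1*, 0.82 for *Meis2*, -2.13 for *Tcf21*, -3.30 for *Pdgfra*, -2.57 for *Pdgfrb* and -2.56 for *Ntn1*. *Pdgfra* is the gene of the sort gate.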

How the results depend on the processing

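Of 116 log2 fold changes of members, a pseudocount of 0.1 and no filter on low values each left every one with their direction and side of the threshold, and edgeR on the recovered reads did so for all but one, *Pbx3* between iSP and iNP. With 1 spread for all 36 samples, 19 calls were lost. The members called there were 3 (6 as reported) between iSP and iNP, 4 (7) between iSP and E11.5 SP, 5 (8) between iNP and E11.5 NP, 2 (5) between eUB and E11.5 UB and 3 (5) for the difference of differences against E11.5. Over all genes the same fit called 4268 (4320), 9867 (9411), 9735 (9102), 8146 (8445) and 4101 (4344) in these comparisons and 3141 (1162) between E12.5 and E11.5 SP. In that last comparison, leaving out 1 library gave 1 to 7 members and 392 to 2889 genes, and 7 members and 2889 genes were called without the E12.5 libraries numbered 1, a setting chosen after seeing the data. Also chosen after seeing the data, the E12.5 UB libraries in place of the E11.5 ones left 2 members (5) called against eUB, and 3 without the library numbered 1. Of the members not called there, *Meis2* turned to -0.377 and *Ntn1* to -0.0814 with all 4 libraries and *Meis1* to 0.161 without that library. With the replicate block, for the paired E12.5 SP and NP libraries, 7961 (4789) genes were called. In the difference of differences against E12.5, which holds these paired libraries and the unpaired iSP and iNP, the block gave a call to *Meis1* (adjusted p = 0.0424, limma). Between the SP ages, whose numbers did not pair the libraries, it ended the call of *Pbx3* (adjusted p = 0.103). Beside these and the calls of *Meis2* and *Meis3* between E12.5 SP and NP, the block changed no call of a member.

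Quantile normalisation turned *Meis1* between iSP and E11.5 SP to 0.146. Leaving out a library moved this value from -0.111 to 0.0129 (above 0 without E11.5 SP 2) and *Meis1* between iSP and E12.5 SP from -0.00864 (without E12.5 SP 1, also without all E12.5 libraries numbered 1) to 0.2196. It moved *Pbx3* between E12.5 SP and NP from -0.0873 (without NP 1) to 0.2916, *Pdgfra* between eUB and E11.5 UB from -0.325 to 0.0209 (without E11.5 UB 2), and *Pbx3* in the difference of differences against E12.5 from -0.0350 to 0.344 (below 0 without E12.5 NP 2 or 4 or SP 1). None of these was called, and the cause was not tested. With 4 libraries a group, a difference under the spread between them could not be seen.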
